A study of Mus musculus with 9 samples.

Results

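The DNA replication licensing genes described here are 10 of the 32285 genes measured, chosen by name: Mcm2, Mcm3, Mcm4, Mcm5, Mcm6, Mcm7, Pcna, Cdt1, Cdc6 and Gins2. Single cell RNA-seq was performed on whole testes of C57BL/6 mice at PND24, with 1 library per mouse. The libraries came from 4 control, 2 NELF-B cKO and 3 TDP-43 cKO mice. The cKO mice carried a floxed and a null allele of Nelfb or of Tardbp, which encodes TDP-43, together with the Stra8-iCre transgene, which is active in spermatogonia (SG), and the floxed parts were exons 1 to 4 of Nelfb and exon 3 of Tardbp. The controls were littermates of the cKO mice or other mice of the same background and age, with alleles not given in the labels or methods, and the deposited data of control replicate 2 alone carry the word het in their name. The questions asked of these genes are where in germ cell development they are expressed, as a marker of mitotic and of premeiotic S phase, and whether their levels differ between the 3 genotypes.

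Before replication, the origin recognition complex, Cdc6 and Cdt1 load the ring of Mcm2 to Mcm7, the helicase, onto DNA, which licenses an origin to fire once. In S phase the GINS complex, of which Gins2 is a subunit, joins the ring and turns it into an active helicase, and Pcna, the sliding clamp, holds the DNA polymerases on the template and also takes part in repair. SG divide by mitosis, preleptotene (pL) spermatocytes (SC) copy their DNA for the last time, and no further S phase follows in leptotene (L), zygotene (Z), pachytene (P) or diplotene (D) SC or in round spermatids (RS).

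For each mouse, the UMIs of all cells of a stage were added up and are given as counts per 1000000 UMIs of that sum (CPM). Each UMI counts 1 transcript, so that levels were compared within a gene and between stages or mice. The libraries held 119203347 to 159407373 UMIs, and 45132 barcodes passed the filter on genes and mitochondrial UMIs. Stages were given to clusters from marker genes, and the licensing genes were not among the genes used for clustering. Per mouse, 270 to 592 SG-like, 109 to 474 pL-like, 112 to 396 L-like and 25 to 281 Z-like cells were summed. With no cell left out, Nelfb had 63.1 to 74.5 CPM in these cells of controls and 4.14 and 4.99 in NELF-B cKO, and Tardbp had 95.9 to 135 CPM in controls and 34.3, 46.5 and 50.4 in TDP-43 cKO. As in the study, cKO germ cells in which the targeted gene still had a UMI were then dropped. The libraries of the NELF-B cKO mice stood apart from each other: NELF-B cKO 1 kept 356 P-like and 170 RS-like cells, and NELF-B cKO 2 kept 37 and 4.

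In controls, the summed level of the licensing genes was highest in differentiating SG and pL SC and lower in L and Z SC. It was 721 to 835 CPM in undifferentiated SG-like cells, 1154 to 1287 in differentiating SG-like cells, 1021 to 1102 in pL-like cells, 731 to 779 in L-like cells and 370 to 418 in Z-like cells. The log2 ratio of pL over all SG was between -0.03 and 0.04 in the 4 mice, with no common direction, while the ratio of L over pL was -0.50 ± 0.07 (SD, n = 4 mice) and below 0 in each. As the stages are clusters of the same cells, these values are descriptions and carry no test. In P and D SC and RS the sums were 375 to 441, 381 to 414 and 240 to 286 CPM, and Sertoli-like cells, which do not divide at this age, had 217 to 300 CPM, while immune-like cells had 449 to 931.

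**Figure D1:**
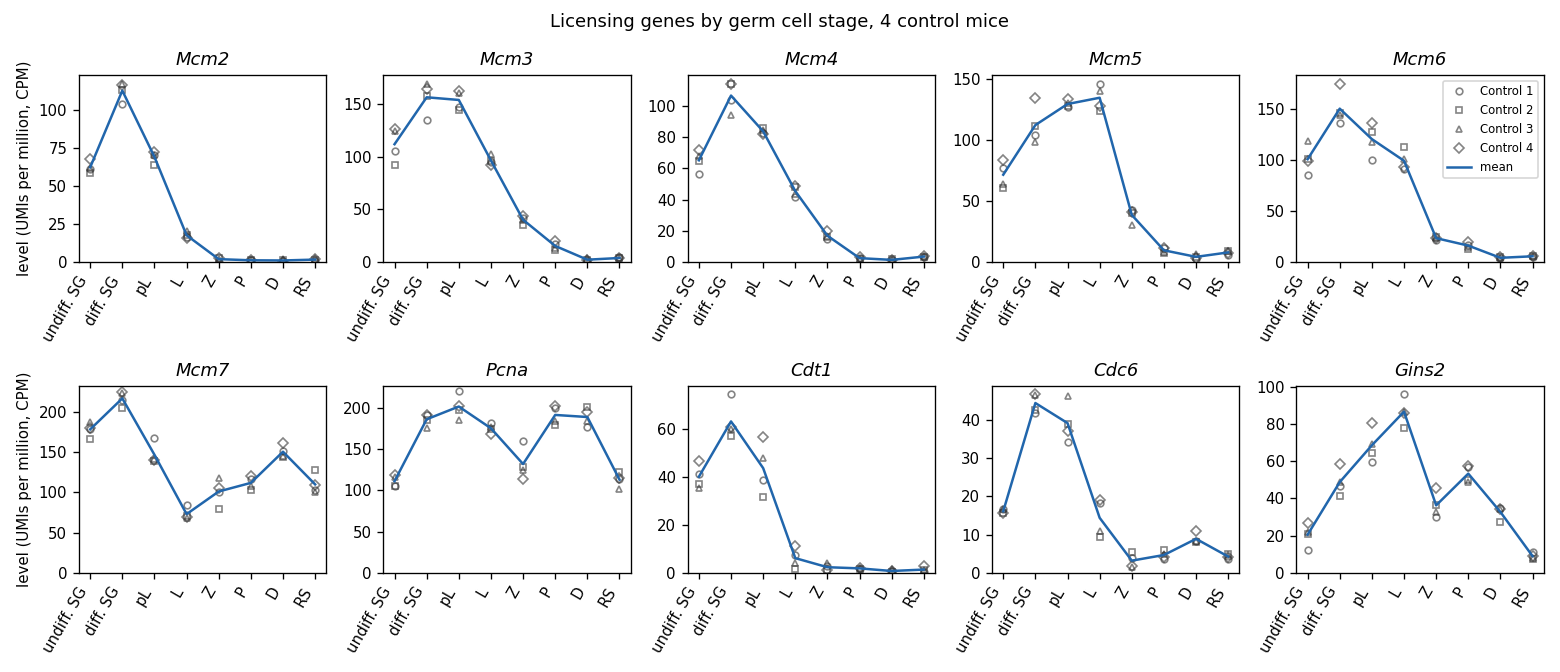
Level of each licensing gene (CPM, y axis from 0) in the germ cell stages of the 4 control mice; each symbol is a mouse and the line joins the means. Cdt1 and Mcm2 step down between pL and L in each mouse, Mcm5 and Gins2 have their highest mean in L, and Mcm7 and Pcna have a mean of at least 72.9 CPM in each stage. The L class includes cells that a finer clustering named pL-like.

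The loading factors and the helicase subunits did not all have their step down at the same stage. Cdt1 had 38.8, 31.4, 47.8 and 56.4 CPM in pL-like cells of control mice 1 to 4 and 7.57, 1.63, 3.94 and 11.3 CPM in L-like cells, where it rested on 3 to 32 UMIs per mouse. Mcm2 had 70.1, 63.6, 70.6 and 71.9 CPM in pL-like cells and 16.7, 17.95, 20.1 and 15.6 in L-like cells. For both genes the mice of the 2 stages did not overlap, and the means differed by -2.83 (Cdt1) and -1.97 (Mcm2) on the log2 scale. Mcm2 had already been lower in pL than in SG in 4 of 4 mice, by 0.47 on that scale. Cdc6 went from a mean of 39.2 to 14.4 CPM between pL and L, Mcm4 from 83.7 to 45.4, Mcm7 from 147 to 72.9 and Mcm3 from 154 to 96.7, each lower in 4 of 4 mice without overlap.

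Mcm5 and Gins2 had no step down between the pL-like and L-like classes used here. That L-like class includes cells that a finer clustering, described below, named pL-like (finer cluster 13). From those cells to the L-like cells of that clustering, the means of both genes were lower. Mcm5 had a mean of 98.5 CPM in SG, 129 in pL and 134 in L and 38.5 in Z, and its L value was below its pL value in 2 of 4 mice. Gins2 had 39.1 CPM in SG, 68.5 in pL, 86.6 in L and 36.2 in Z, and was higher in L than in pL in 4 of 4 mice with overlapping ranges. Both were higher in pL than in SG in 4 of 4 mice without overlap. Mcm6 lay between the patterns, with 120 CPM in pL, 99.2 in L and 23.4 in Z, lower in L than in pL in 4 of 4 mice with overlapping ranges. By the L to Z step, each of Mcm2 to Mcm6, Cdc6 and Gins2 was lower in 4 of 4 mice without overlap, and the Mcm2, Mcm4 and Cdt1 means were at or under 2.49 CPM in P SC.

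Mcm7 and Pcna did not follow the rest in the later stages. Mcm7 had its lowest mean in L (72.9 CPM) and 101, 112 and 150 CPM in Z, P and D, while Pcna had 132 CPM in Z and 192 and 189 in P and D. Barcodes of 1 to 100 UMIs, which hold RNA free of cells, had 107 to 120 CPM of Mcm7, 159 to 179 of Pcna and 38.3 to 48.6 of Gins2 in controls. The Mcm7 levels of P (103 to 121 CPM) and RS (100.04 to 128 CPM) overlapped those of free RNA, while those of D (144 to 161 CPM) lay above them. Pcna had 179.6 to 202 CPM in P, just above free RNA, 177 to 201 in D, and 101 to 122 in RS, below free RNA. Gins2 had 49.0 to 57.6 CPM in P, just above free RNA, and 27.3 to 34.9 in D and 7.58 to 11.3 in RS, below it. The same barcodes had 9.13 to 16.0 CPM of Mcm2 and 4.26 to 7.37 of Cdt1, at or below which the Mcm2 levels of Z to RS and some of the Cdt1 levels of L fell. Per cell, P-like cells of controls held means of 13.2 UMIs of Pcna, 7.66 of Mcm7 and 3.65 of Gins2. SG-like cells held 3.56, 4.49 and 0.864, and RS-like cells 2.84, 2.81 and 0.208. CPM do not show this difference, as P-like cells held more UMIs in all. The part of free RNA in these levels was not tested. Across the 28 sums of 7 stages (SG, pL, L, Z, P, D and RS) in 4 mice, the Pearson correlation of a gene with the mean standardized level of the other 9 was 0.84 to 0.93 for Mcm2 to Mcm6, Cdt1 and Cdc6, 0.60 for Gins2, 0.40 for Pcna and 0.23 for Mcm7. The 28 sums share mice and libraries, and these values are descriptions.

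The promoters of some of these genes hold the E2F-type motif, to which the E2F factors that act at the start of S phase are known to bind, and they are shown because most of these genes share their high levels in SG and pL. RefSeq (GRCm38.p6) gave 9 windows of 300 bases around the start for 8 of the 10 genes, without Mcm4 and Gins2. The letters TTTNNCGC, on either strand, were present in the windows of 6 of the 8 genes (Mcm3, Mcm5, Mcm6, Mcm7, Cdt1 and Cdc6) and in 5.17% of all 32851 windows of that length. They were also present for 15 of 44 other replication genes with a window. The CCAAT box, the letters CCAAT on either strand, was present for 6 of the 8 genes, in 37.4% of all windows and for 23 of the 44 other replication genes. The 250 bases before the start of Mcm5 (chr8:75109259-75109508, + strand), Mcm6 (chr1:128359706-128359955, − strand), Cdc6 (chr11:98907901-98908150, + strand) and Mcm2 (chr6:88898781-88899030, − strand) are given 5′ to 3′ on the strand of the gene, with the E2F-type matches in capitals. Mcm5 has overlapping matches on both strands, Mcm6 has such a pair and a further match, Cdc6 has 1 match and the Mcm2 window has none.
Mcm5: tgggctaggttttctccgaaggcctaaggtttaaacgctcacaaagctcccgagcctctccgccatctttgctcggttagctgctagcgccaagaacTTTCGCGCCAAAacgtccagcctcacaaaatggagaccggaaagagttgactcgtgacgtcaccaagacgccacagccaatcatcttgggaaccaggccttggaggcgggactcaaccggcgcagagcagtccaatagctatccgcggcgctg
Mcm6: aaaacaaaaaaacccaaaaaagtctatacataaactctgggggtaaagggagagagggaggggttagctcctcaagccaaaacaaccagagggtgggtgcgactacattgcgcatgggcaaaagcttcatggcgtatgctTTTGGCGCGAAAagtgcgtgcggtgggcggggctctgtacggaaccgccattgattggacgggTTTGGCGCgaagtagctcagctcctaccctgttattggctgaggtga
Cdc6: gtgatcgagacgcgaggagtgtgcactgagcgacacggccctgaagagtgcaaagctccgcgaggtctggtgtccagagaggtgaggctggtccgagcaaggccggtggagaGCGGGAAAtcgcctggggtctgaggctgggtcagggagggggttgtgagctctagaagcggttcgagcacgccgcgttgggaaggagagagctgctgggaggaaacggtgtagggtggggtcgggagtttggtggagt
Mcm2: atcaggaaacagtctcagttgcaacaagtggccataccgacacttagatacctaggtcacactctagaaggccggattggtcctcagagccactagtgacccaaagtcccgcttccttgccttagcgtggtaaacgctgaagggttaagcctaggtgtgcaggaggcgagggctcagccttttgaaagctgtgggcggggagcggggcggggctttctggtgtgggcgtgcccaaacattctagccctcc

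At a finer resolution, the clusters of the early germ cells separated cells with high Stra8, the retinoic acid target that marks entry into meiosis, from the rest. This is of interest because Stra8 was lower in the pL-like cells as a whole (123 to 284 CPM in controls) than in the L-like cells (352 to 490), although all 6 pL markers stood out in the pL-like cluster. Finer cluster 13, of pL-like type at that resolution, held 46, 56, 91 and 105 cells of control mice 1 to 4, of which 45, 43, 81 and 87 were counted as L-like above. It had a mean of 1077 CPM of Stra8 and 218 of Prdm9, the factor that places meiotic recombination sites, and its mean of 27.1 CPM of the mitotic cyclin gene Ccnb1 was below the 82.1 to 200 CPM of finer clusters 6, 7 and 9. Among the 7 clusters plotted it also had the highest mean of Mcm5 (166 CPM, 152 to 177 in the 4 mice) and Gins2 (115 CPM, 108 to 128), while Mcm2 and Cdt1 had 47.4 and 24.5 CPM. Finer cluster 7, also of pL-like type, had 181 CPM of Stra8, 65.95 of Mcm2 and 38.7 of Cdt1. In finer cluster 9, of L-like type, Mcm2 was down to 7.21 CPM and Cdt1 to 1.31, whereas Mcm5 was at 119 and Gins2 at 77.2. The Mcm5 and Gins2 means were thus also lower in finer cluster 9 than in finer cluster 13.

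**Figure D2:**
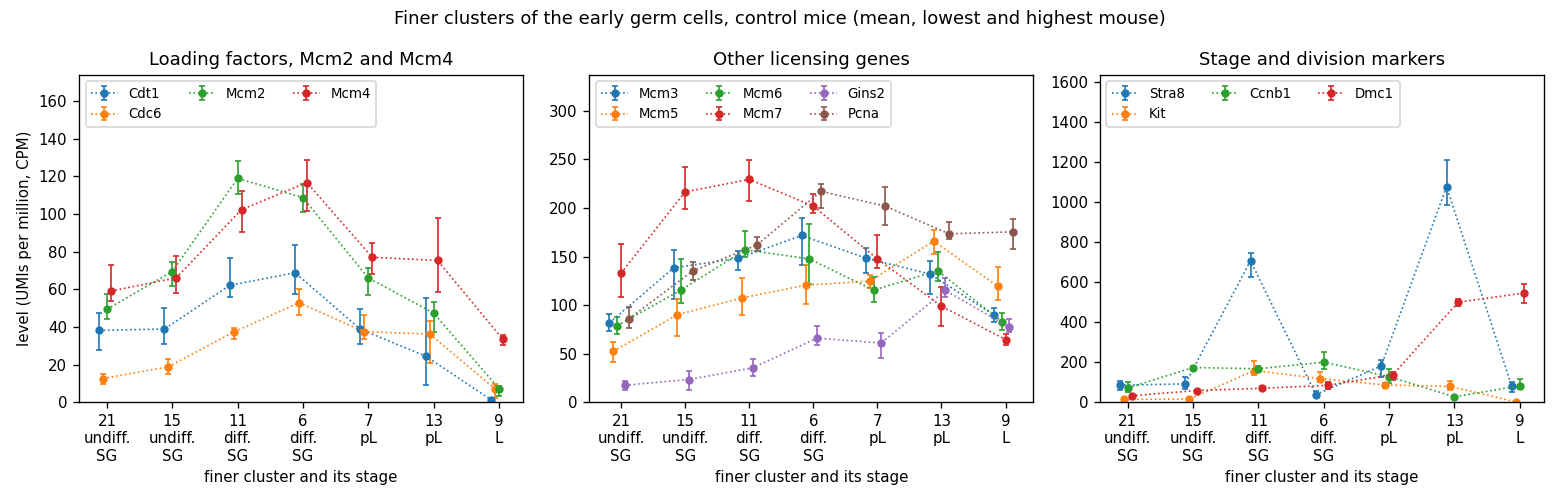
Level (CPM, y axes from 0) of the licensing genes and of 4 stage and division markers in 7 finer clusters of early germ cells, with points at the mean of the 4 control mice and bars from the lowest to the highest mouse; clusters are set side by side in the order of their stages and the dotted lines only join the points of a gene. Mcm5 and Gins2 have their highest means in cluster 13, where Stra8 is highest and Ccnb1 lowest, and Cdt1 and Mcm2 their lowest in cluster 9.

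Among SG, the 2 differentiating clusters plotted had summed licensing levels of 1271 CPM (1174 to 1386, cluster 6) and 1159 CPM (1108 to 1243, cluster 11), and the 2 undifferentiated clusters 912 CPM (833 to 1006, cluster 15) and 608 CPM (562 to 665, cluster 21). A further differentiating cluster, with 109 cells of controls, had 555 to 1139 CPM in the 3 mice with enough cells. Each of the 10 genes had a higher mean in differentiating than in undifferentiated SG of controls, for example 44.4 against 16.1 CPM for Cdc6 and 112 against 71.5 for Mcm5. After cells were thinned to 2000 UMIs, without the shallower cells (2 to 22 per control mouse in differentiating SG, 0 to 10 in the other germ cell stages given and 4 to 9 in Sertoli-like cells), a differentiating SG-like cell held UMIs of 1.93 to 2.17 licensing genes on average over the control mice, a pL-like cell 1.77 to 1.93, an L-like cell 1.24 to 1.40 and a Z-like cell 0.67 to 0.72. Undifferentiated SG-like cells had 1.09 to 1.48 and Sertoli-like cells 0.35 to 0.61, and undifferentiated SG overlapped L both in this measure and in CPM.

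Among the germ cell stages, the highest mean was in differentiating SG for 7 of the 10 licensing genes, in pL for Pcna and in L, with the cells of finer cluster 13 counted there, for Mcm5 and Gins2. In finer cluster 9, which holds nearly all other L-like cells, the Mcm5 mean of 119 CPM was below that of pL (129 CPM), and the Gins2 mean of 77.2 CPM was above it (68.5 CPM). Of 53 other replication genes, 16 had their highest control mean in differentiating SG, 15 in pL and 13 in L, among the last Pole, Prim1, Gins3 and Tipin, which act at the fork. The 10 genes with the stage pattern most like the mean of the licensing genes, out of 14108 genes with at least 10 CPM in a stage, were Rpl13a (r = 0.99 over the 28 sums), Tcf25, Rfc5, Rpl12, Man2b1, Pmm1, Wrap53, Rpl23a, Rab11fip3 and Mrpl23 (r = 0.97). Rfc5, a subunit of the loader of Pcna, was the 1 gene of the replication list among them.

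When SG and pL, L and Z SC were summed per mouse, as in the study's own comparison, the helicase subunits and Cdt1 were higher in each TDP-43 cKO mouse than in controls, but no licensing gene passed the test. Mcm7 had 165, 158, 164 and 150 CPM in controls, 143 and 157 in NELF-B cKO, and 188, 194 and 189 in TDP-43 cKO. Mcm2 had 64.6, 72.0, 69.3 and 59.7 CPM in controls, 64.7 and 76.6 in NELF-B cKO, and 87.0, 79.8 and 82.3 in TDP-43 cKO. Cdt1 had 42.2, 36.8, 37.9 and 37.2 CPM in controls, 50.2 and 58.9 in NELF-B cKO, and 51.6, 48.8 and 49.4 in TDP-43 cKO. For Mcm2, Mcm3, Mcm5 and Mcm7 the TDP-43 cKO mice lay above the mice of both other groups (4 of 10 genes, 4.19% of all genes). For Mcm4, Mcm5, Mcm6 and Cdt1 the mice of both cKO groups lay above the controls. The share of all genes for which both groups did so at once is not given. Taken singly, the TDP-43 cKO lay above the controls for 9.4% of all genes and the NELF-B cKO for 11.7%.

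With edgeR's quasi-likelihood test over all genes, 0 of the 10 licensing genes were called in either cKO, where 1 of the 19476 genes tested (0.00513%) was called in each comparison. As the test called so few genes of any kind, the count of 0 does not show that the licensing genes were unchanged. In the TDP-43 cKO, Mcm2 to Mcm7 and Cdt1 had log2 fold changes of 0.30 to 0.43 with an adjusted p of 0.0864 each. For Mcm5 the value was 0.39 ± 0.09 (SE), and for Pcna, which had 161 to 183 CPM in controls and 159 to 171 in TDP-43 cKO, it was 0.02 ± 0.09. At an unadjusted p under 0.05, 8 of the 10 were higher in the TDP-43 cKO (9.09% of all genes) and 4 in the NELF-B cKO (7.47%), namely Mcm4, Mcm6, Cdt1 and Cdc6. The lowest cKO mouse lay above the highest control mouse for 7 genes in the TDP-43 cKO (9.4% of all genes) and for 5 in the NELF-B cKO (11.7%). The median log2 fold change of the 10 genes was 0.32 in the TDP-43 cKO, beside 0.01 over all genes, and 0.12 in the NELF-B cKO, beside -0.02. DESeq2, the tool of the study, called 7 of the 10 in the TDP-43 cKO and 2 in the NELF-B cKO at an adjusted p under 0.05. The study set a stricter threshold and a limit on the fold change, and still reported more called genes in each cKO than this edgeR fit of 9 mice. EdgeR with control and TDP-43 cKO mice alone, a choice made after the data had been seen, also called 7. The shares of all genes called by DESeq2, here and below, and by this fit are not given. These counts therefore cannot be set against all genes.

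**Figure D3:**
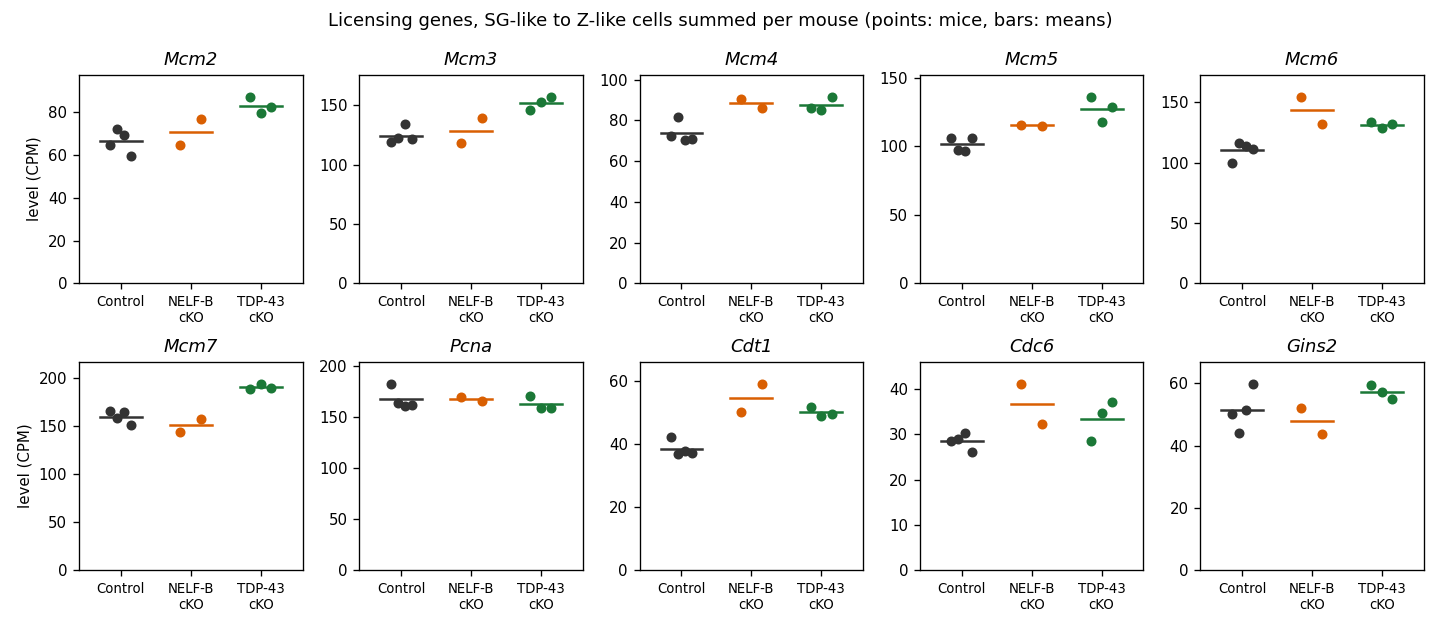
Level (CPM, y axes from 0) of each licensing gene in SG and pL, L and Z SC summed per mouse; points are mice and bars are group means. The TDP-43 cKO mice lie above the 4 control mice for Mcm2 to Mcm7 and Cdt1, and the groups overlap for Pcna.

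The makeup of these sums also differed between the groups. SG gave 43.8% to 62.7% of their UMIs in controls, 53.3% and 65.1% in NELF-B cKO and 61.4% to 67.2% in TDP-43 cKO. With the 4 stages weighted equally in each mouse, the summed licensing level was 791 to 839 CPM in controls, 829 and 844 in NELF-B cKO and 902 to 972 in TDP-43 cKO. In the free RNA of the TDP-43 cKO libraries the licensing genes summed to 570, 638 and 710 CPM, against 398 to 449 in the control libraries and 464 and 414 in the NELF-B cKO libraries. Without Pcna and Gins2 these sums were 425, 459 and 532 CPM, against 178 to 239 and 227 and 272. Mcm2 alone had 54.6, 43.4 and 55.9 CPM in the free RNA of TDP-43 cKO, 9.13 to 16.0 in that of controls and 16.4 and 29.1 in that of NELF-B cKO. The 8 RS markers summed to 48.9 to 188 CPM in the early germ cells of controls, 112 and 26.2 in NELF-B cKO, and 16.1 to 35.1 in TDP-43 cKO. The 7 Sertoli markers summed to 86.4 to 188 CPM in controls, 87.6 and 376 in NELF-B cKO, and 151 to 192 in TDP-43 cKO. The part of free RNA and of other cells in the differences was not tested.

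Within SG alone, no licensing gene passed the test. Mcm7 had 203, 193, 209.9 and 208 CPM in controls, 187 and 190.5 in NELF-B cKO, and 234, 244 and 238 in TDP-43 cKO, and these 3 groups did not overlap, as for no other of the 10 genes (2.16% of all genes). Its log2 fold change in the TDP-43 cKO was 0.31 ± 0.07 (SE, adjusted p = 0.123). The count of called genes was 0 of 10 in SG of either cKO (0.0111% of 18091 genes were called in the NELF-B cKO and 0.00553% in the TDP-43 cKO). At an unadjusted p under 0.05, 7 genes were higher in the TDP-43 cKO (7.8% of all genes) and 1, Cdt1, in the NELF-B cKO (6.85%). Each cKO mouse lay above the controls for 5 genes in the TDP-43 cKO (6.27% of all genes) and for 1 in the NELF-B cKO (9.27%). Dropping cells with a Tardbp UMI left 118 of 403, 124 of 337 and 133 of 394 undifferentiated SG-like cells in TDP-43 cKO. It left 209 of 365, 341 of 602 and 354 of 667 differentiating ones. With no cell left out, Mcm2, Mcm3 and Mcm7 still lay above the controls. Mcm5 (108 to 111 CPM, controls up to 116) and Cdt1 (59.7 to 63.2 CPM, controls up to 63.6) then overlapped them. Median log2 fold changes were 0.25 and 0.08, beside -0.0026 and -0.03 over all genes. DESeq2 called 5 of the 10 in the TDP-43 cKO and 0 in the NELF-B cKO.

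In pL SC, Gins2 and Mcm5 had the lowest p-values in the TDP-43 cKO. Gins2 had 59.4, 64.5, 69.4 and 80.7 CPM in controls, 63.8 and 64.1 in NELF-B cKO, and 107, 89.6 and 100.3 in TDP-43 cKO. Mcm5 had 127, 128, 130.0 and 133 CPM in controls, 122 and 142 in NELF-B cKO, and 171, 153 and 189 in TDP-43 cKO. For both genes the TDP-43 cKO mice lay above the mice of the other groups, which held for 3 of the 10 genes and 4.18% of all genes. The log2 fold changes against control were 0.58 ± 0.12 for Gins2 and 0.45 ± 0.09 for Mcm5 (SE, adjusted p = 0.113 for both). Again 0 of the 10 genes were called in either cKO (0.352% of 13368 genes were called in the NELF-B cKO and 0.015% in the TDP-43 cKO), while 7 were higher at an unadjusted p under 0.05 in the TDP-43 cKO (7.8% of all genes) and 2, Mcm4 and Mcm6, in the NELF-B cKO (8.18%). Each cKO mouse lay above the controls for 4 genes in the TDP-43 cKO (6.89% of all genes) and for 2 in the NELF-B cKO (12.4%). DESeq2 called 2 of the 10 in the TDP-43 cKO. The cells of finer cluster 13, where Gins2 and Mcm5 were high, were not divided alike between the classes. It held 46, 56, 91 and 105 cells in controls, of which 45, 43, 81 and 87 were L-like. In NELF-B cKO it held 246 and 75, of which 244 and 36 were L-like. In TDP-43 cKO it held 95, 112 and 121, of which 55, 61 and 82 were L-like. The part of its other cells in the pL values, here and between the cKOs, was not tested.

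The cKOs were also compared with each other. In the summed early germ cells 0 of the 10 genes were called (0.128% of 19476 genes), with 4 higher in the TDP-43 cKO at an unadjusted p under 0.05 (8.37% of all genes), and DESeq2 called 1. The difference was 0.42 ± 0.09 on the log2 scale for Mcm7 (adjusted p = 0.104) and -0.04 ± 0.09 for Mcm6, which had 154 and 132 CPM in NELF-B cKO and 129 to 133 in TDP-43 cKO. In pL SC the difference for Gins2 was 0.67 ± 0.15 (adjusted p = 0.0464), higher in 3 of 3 TDP-43 cKO mice, and it was the 1 licensing gene of 10 called there (2.71% of 13368 genes). With mice of the same replicate number fitted as a block, the adjusted p of Gins2 in edgeR's test was 0.195.

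At the L stage, in a comparison added after the stage levels had been seen, 3 helicase subunits passed the test in the TDP-43 cKO and 1 in the NELF-B cKO. Mcm6 had 90.8, 113, 100.6 and 93.0 CPM in controls, 162 and 145 in NELF-B cKO, and 139, 114 and 145 in TDP-43 cKO. Mcm5 had 146, 124, 140.4 and 128 CPM in controls, 169 and 189.8 in NELF-B cKO, and 207, 180.5 and 192 in TDP-43 cKO. Mcm4 had 41.6, 47.9, 43.4 and 48.8 CPM in controls, 60.3 and 56.8 in NELF-B cKO, and 67.4, 57.3 and 70.6 in TDP-43 cKO. For these 3 genes each cKO mouse lay above the controls, as it did for Mcm2 in the TDP-43 cKO (4 of 10 genes, 10.7% of all genes) and for Cdc6 in the NELF-B cKO (4 of 10, 13.7%). Both NELF-B cKO mice lay below the controls for another 4 of the 10, Mcm2, Mcm7, Pcna and Gins2 (15.4% of all genes). In the TDP-43 cKO, Mcm4, Mcm5 and Mcm6 rose by 0.63 ± 0.14, 0.64 ± 0.12 and 0.54 ± 0.13 on the log2 scale (SE, adjusted p = 0.0199, 0.0154 and 0.0253), 3 of 10 licensing genes where 17.1% of the 11788 genes tested were called and 7.08% were called higher. In the NELF-B cKO, Mcm6 rose by 0.67 ± 0.14 (adjusted p = 0.0331), 1 of 10 where 3.7% of the genes were called and 2.54% were called higher. With the replicate block 0 of the 10 were called in either cKO (1 of 11788 genes in the NELF-B cKO and 2 in the TDP-43 cKO). With each cell thinned to 3000 UMIs the count in the TDP-43 cKO was 1, without TDP-43 cKO replicate 1 or 3 it was 0, and without control replicate 1, 3 or 4, NELF-B cKO replicate 1 or TDP-43 cKO replicate 3 the count in the NELF-B cKO was 0.

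**Figure D4:**
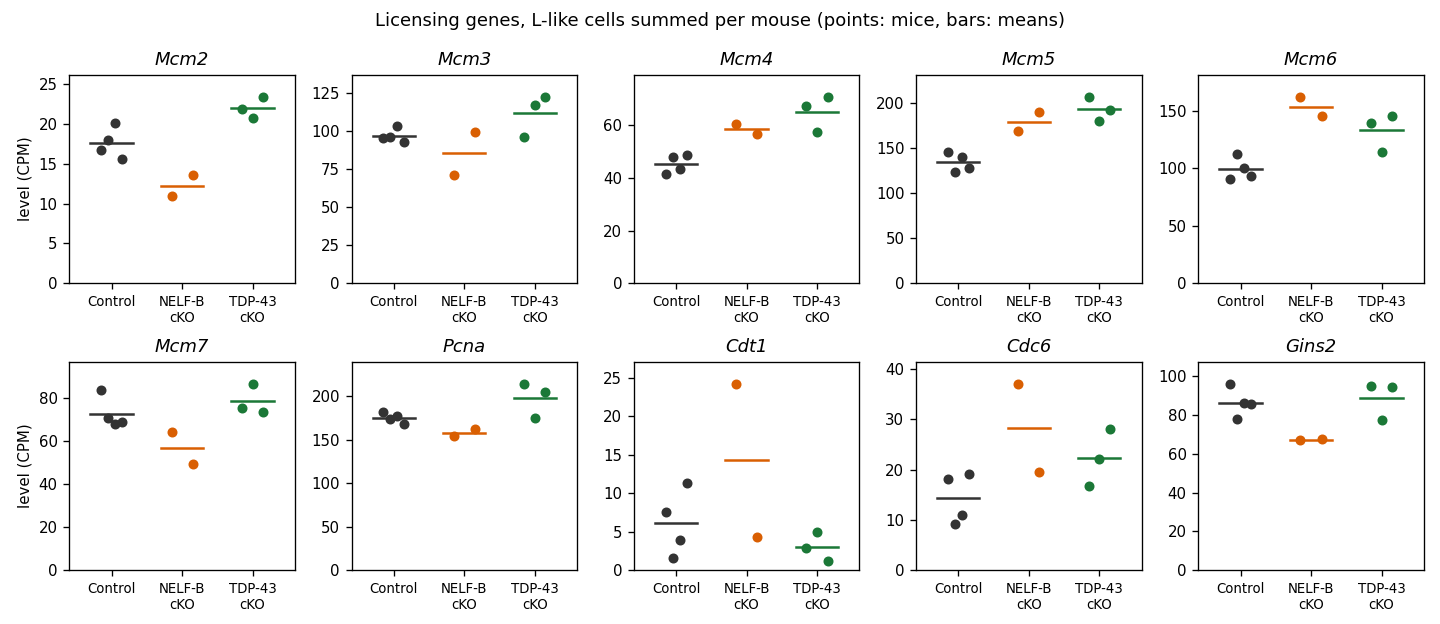
Level (CPM, y axes from 0) of each licensing gene in L-like cells summed per mouse; points are mice and bars are group means. For Mcm4, Mcm5 and Mcm6 all 5 cKO mice lie above the 4 control mice, while the groups overlap for Cdt1, which rests on few UMIs. The share of all genes with all 5 cKO mice above the controls is not given.

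The cells called L differed in kind between the groups. The share of L-like cells that fell in finer cluster 13, with high Stra8, was 26.9% to 28.8% in controls, 61.6% and 30.5% in NELF-B cKO, and 49.1%, 38.9% and 44.3% in TDP-43 cKO. Within that finer cluster 0 of the 10 genes were called in either cKO (1.82% of 10368 genes in the NELF-B cKO and 0.0289% in the TDP-43 cKO). Within finer cluster 9, 8 of the 10 genes passed the filter on low counts, which Mcm2 and Cdt1 did not. Of these, Mcm4, Mcm5, Mcm6 and Mcm7 were called in the TDP-43 cKO (17% of 10257 genes called, 8.99% higher), with log2 fold changes of 0.47 to 0.88, and 0 in the NELF-B cKO (2.55%). With the replicate block 0 were called in either cKO (1 of 10257 genes in the TDP-43 cKO and 4 in the NELF-B cKO). The TDP-43 cKO count was 0 without TDP-43 cKO replicate 1 and 2 without TDP-43 cKO replicate 3 or control replicate 3, and the NELF-B cKO count was 2 without NELF-B cKO replicate 2. Between the cKOs, Mcm7 was the 1 gene of the 8 called there (2.92% of 10257 genes), with a difference of 0.85 ± 0.19 on the log2 scale (SE, adjusted p = 0.0354). With the replicate block the adjusted p of Mcm7 in edgeR's test was 0.154. In the same cells Stra8 had 52.0 to 101 CPM in controls, 234 and 94.3 in NELF-B cKO and 134 to 280.4 in TDP-43 cKO. Dmc1, a recombinase gene of L and Z SC, had 494 to 592, 629 and 587, and 719 to 889.6 CPM in these groups. The part of the makeup of the L-like cells in the L values was not tested further. In Z SC, 7 of the 10 genes passed the filter and 0 were called in either cKO (4.29% of 11621 genes in the NELF-B cKO and 11.3% in the TDP-43 cKO), where 1 gene (Mcm7) was lower in the NELF-B cKO (9.29% of all genes) and 1 (Mcm3) higher in the TDP-43 cKO (12.2%) at an unadjusted p under 0.05. DESeq2 called 0 in Z SC of either cKO and, in L, 2 in the NELF-B cKO and 3 in the TDP-43 cKO.

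**Figure D5:**
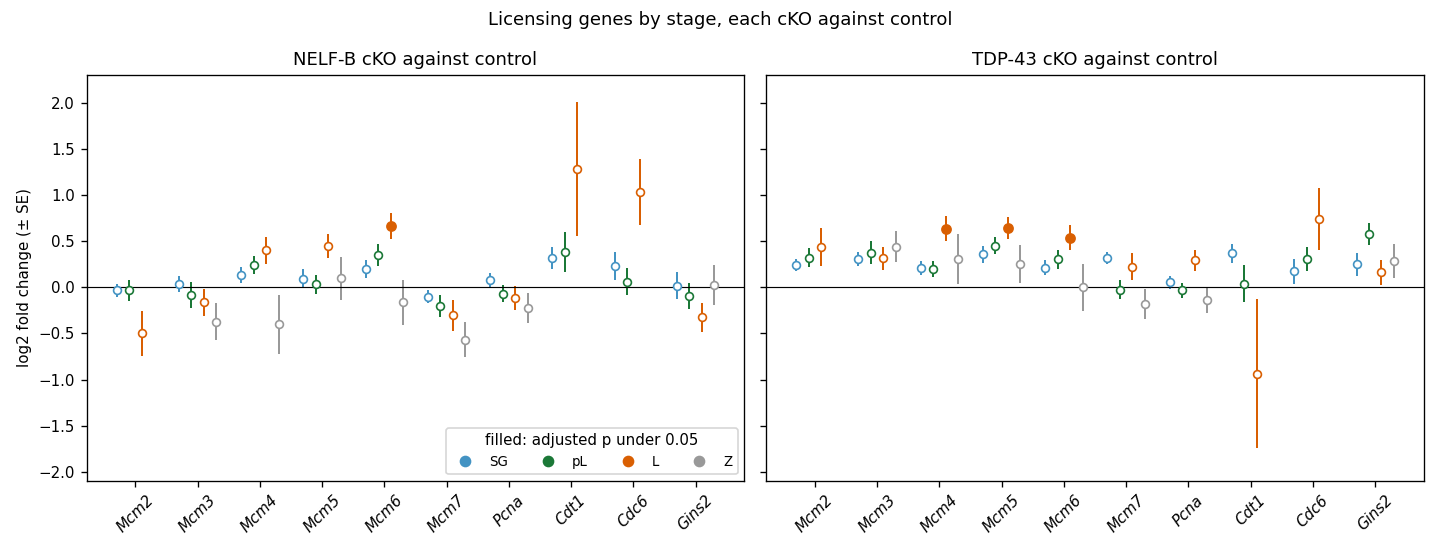
Log2 fold change of each licensing gene against control (y axis, with bars of 1 SE) in SG, pL, L and Z of the NELF-B cKO (left) and TDP-43 cKO (right); filled points passed an adjusted p of 0.05 in edgeR's test, and genes that did not pass the filter in a stage have no point. The filled points are Mcm6 in L of the NELF-B cKO and Mcm4, Mcm5 and Mcm6 in L of the TDP-43 cKO.

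The other genes of the pathway were counted from the list of 53 replication genes. In the summed early germ cells, SG and pL SC, 0 of the 53 were called in either cKO. In L SC, 51 were tested and 13 were called higher (7.08% of all genes) and 2 lower (9.98%) in the TDP-43 cKO, with Rrm2, a subunit of the reductase that makes deoxynucleotides, at 1.02, Gins3, another subunit of GINS, at 0.80 and Rfc3, of the clamp loader, at 0.79 on the log2 scale. The 2 lower genes were Pole2 and Rfc2, also of the clamp loader, the latter at -1.46. Rfc2 had its highest control mean in RS (186 CPM, against 91.5 in L), and Pole2 had its highest in L. Pole2, of polymerase epsilon, had 30.3 CPM in TDP-43 cKO and 66.2 in controls. In the NELF-B cKO 5 of the 51 were called (3.7% of all genes), all higher (2.54%): Orc1 and Orc4 of the origin recognition complex, Timeless, Mcmbp, which binds the helicase subunits, and Cdc45, a partner of GINS, with log2 fold changes of 0.51 to 0.78. In finer cluster 9, 4 of 49 were called in the NELF-B cKO (2.55% of all genes). Orc1, Mcmbp and Rrm1, of the same reductase as Rrm2, were higher and Pole2 was lower (8.26 CPM against 72.9 in controls). In the TDP-43 cKO 14 were called there (17% of all genes), 13 higher (8.99%) and 1 lower. Median log2 fold changes of the 51 genes in L were 0.31 in the TDP-43 cKO and 0.19 in the NELF-B cKO, beside -0.01 and -0.05 over all genes. In Z SC, 1 of 49 was called in the NELF-B cKO (Mcmbp), where 4.29% of all genes were called.

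A list of 20 mitotic G2/M genes was counted beside them, since licensing genes and G2/M genes belong to different phases of a cell cycle. In the summed early germ cells 0 of the 20 were called in either cKO. Of these 20 genes, 8 had each TDP-43 cKO mouse below the control mice (18.7% of all genes) and 0 above them (9.4%), while 5 had both NELF-B cKO mice above the control mice (11.7%) and 1 below them (9.85%). Mki67, a gene of dividing cells, differed from controls by -0.38 ± 0.10 on the log2 scale for the TDP-43 cKO (SE, adjusted p = 0.0864) and by 0.38 ± 0.12 for the NELF-B cKO (adjusted p = 0.230). Ccnb1 and Cdk1, the cyclin and kinase of mitotic entry, had -0.04 ± 0.14 and -0.04 ± 0.15 in the TDP-43 cKO and -0.10 ± 0.16 and -0.01 ± 0.16 in the NELF-B cKO. In L SC of the TDP-43 cKO, 19 of the 20 were tested, of which Aurka, Ccnb1, Ccnb2 and Cdc20 fell by 1.66, 1.15, 1.11 and 0.78 on the log2 scale and Cenpf, Tpx2, Bub1 and Top2a rose by 0.36 to 0.49, where 9.98% of all genes were called lower and 7.08% higher. The 4 genes that fell had their highest control means in D (Aurka 468 CPM, Ccnb2 395 CPM and Ccnb1 346 CPM) or Z (Cdc20 391 CPM), and those that rose had theirs in differentiating SG (Cenpf), pL (Tpx2) or L (Bub1 and Top2a). In the NELF-B cKO, Cenpf was the 1 gene of the 19 called, with a rise of 0.76 (2.54% of all genes were called higher).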

How the data were processed

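Whole testis libraries of 9 mice were sequenced with the 10x 3′ method. The authors demultiplexed the reads with Cell Ranger 6.1.1, aligned them to the mm10 genome with Cell Ranger 7.0.0 (versions as in the submitters' processing notes) and deposited whole UMI counts per gene and barcode, without normalization or choice of cells. The study further used Seurat 4.2.0 and DESeq2 1.36.

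A barcode was kept if it held more than 1000 genes and less than 10% mitochondrial UMIs, and a gene if it was found in more than 15 such barcodes, which left 45132 barcodes and 26567 genes. Clusters were made from 3000 variable genes, 40 components and 20 neighbours with leidenalg 0.10.2 (resolution 0.8, seed 7), with 85 genes left out of the variable genes: the licensing, replication and G2/M lists and the targeted genes. Of 32 clusters, those with at least 3 markers of a type were named. The naming rules were completed after the clusters had been seen, and no doublets were removed. A total of 260 barcode sequences occurred in more than 1 library. Finer clusters came from resolution 1.5. In cKO libraries only, cells that still held a UMI of their targeted gene were dropped, 160 and 71 cells for NELF-B cKO and 699, 1121 and 1268 for TDP-43 cKO.

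Counts were summed per mouse and stage (at least 20 cells) and tested with edgeR 4.0.16 (TMM, filterByExpr, glmQLFit, glmQLFTest; R 4.3.3) with 9 mice in 1 fit, two-sided, called at a Benjamini-Hochberg adjusted p under 0.05 over all genes tested. SE is the log2 fold change over the square root of F. Alternatives were DESeq2 1.42.0, no filter, other cell removal, cells thinned to 3000 UMIs, other clusters, a replicate block and each mouse left out. With 1 of the 2 NELF-B cKO mice left out, the other was assumed to vary like the mice of the other groups. The script was tested on simulated data with 200 changed genes. The members and lists were chosen with earlier results of these data known. Named genes are the 10 members, the targeted genes, Mki67, Ccnb1 and Cdk1, the called genes of the replication list (up to 5 per comparison) and the 10 genes most alike; further names were chosen after their values had been seen. The replication genes called in Z SC of the TDP-43 cKO are not reported here. Intervals and counts cover the spread between mice.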

Additional observations from a re-analysis of the deposited data

Results flagged for a closer look

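In the control mice, the level of Pcna in the summed early germ cells was 183 CPM in control replicate 1 and 161 to 164 CPM in the others, and that of Mcm7 in pL SC was 167 CPM in control replicate 1 and 139 to 141 CPM in the others. Both were flagged as a sample far from the rest of its group, 2 of 50 groups examined, where chance flags about 1 in 20.

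The TDP-43 cKO and the NELF-B cKO differed in the log2 fold change of Gins2 in pL SC by 0.67 (adjusted p = 0.0464, edgeR, TDP-43 cKO minus NELF-B cKO) and of Mcm7 in finer cluster 9 of L-like cells by 0.85 (adjusted p = 0.0354, where 2.92% of 10257 genes were called).

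Barcodes of 1 to 100 UMIs, which enter no comparison, held more licensing UMIs than those of the control mice (at most 449 CPM): 464 CPM in NELF-B cKO replicate 1 and 570, 638 and 710 CPM in the TDP-43 cKO mice.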

How the results depend on the processing

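Of 2298 recomputed values of single licensing genes, 2046 kept their direction and side of the threshold. Another 120 changed direction with neither value past the threshold, and 0 changed direction with either value past it. In the same direction, 88 passed the threshold that they had missed and 44 missed the threshold that they had passed. Counts of called licensing genes moved as follows. Apart from the replicate block, the shares of all genes called at other settings or with a mouse left out are not given. Such counts, here and above, therefore cannot be set against all genes. In the summed early germ cells, where the count was 0 for each comparison, it was 2 for the NELF-B cKO, 7 for the TDP-43 cKO and 1 between the cKOs with DESeq2, 7 for the TDP-43 cKO with only the 2 groups compared, 3 and 8 at cluster resolution 1.5, 1 for the TDP-43 cKO with clusters balanced over mice, and 2 for the NELF-B cKO with target cells left out of the control mice too. The TDP-43 cKO counts of 0 in SG and in pL became 5 and 2 with DESeq2, 3 and 2 with only the 2 groups compared, and 2 in pL without the filter. In L, the NELF-B cKO count of 1 was 2 with DESeq2, without the filter and with target cells left out of the control mice, and 0 with 2 groups and at resolution 1.5, and the TDP-43 cKO count of 3 was 1 with target cells left out of the control mice and 1 with thinned cells. In Z it was 1 for the NELF-B cKO with balanced clusters and at resolution 1.5 and 2 for the TDP-43 cKO at resolution 1.5, and in Stra8-high pL 1 for the TDP-43 cKO without the filter. The cause was not tested. Balanced clusters gave no L class.

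With each mouse left out in turn, the count ranged from 0 to 7 for the TDP-43 cKO and was 0 to 0 for the NELF-B cKO in the summed early germ cells, 0 to 3 between the cKOs, 0 to 3 and 0 to 2 for the TDP-43 cKO in SG and pL, 0 to 2 and 0 to 3 for the NELF-B and TDP-43 cKO in L, 0 to 1 for the NELF-B cKO in Z and in Stra8-high pL, and 0 to 2 and 0 to 5 in finer cluster 9. The counts of 7, 3 and 2 of the TDP-43 cKO came without NELF-B cKO replicate 1 or 2. The log2 ratio of pL over SG ranged from -0.01 to 0.01 and that of L over pL from -0.52 to -0.46. With balanced clusters the pL over SG ratio was -0.14, at resolution 1.5 it was -0.058, and L over pL was -0.63 there.

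Mice with the same replicate number had correlated deviations of -0.42 to 0.38 in the summed early germ cells. The pairs of control and NELF-B cKO mice had 0.38 and 0.35. The deviations of the 2 NELF-B cKO mice mirror each other, so these values cannot show whether the numbers pair the mice. With the replicate block, 0 licensing genes were called in each comparison, the comparison of the cKOs in each stage and finer cluster included, and the counts of 1 and 3 in L and of 4 in finer cluster 9 became 0. The adjusted p of the differences between the cKOs became 0.195 for Gins2 in pL and 0.154 for Mcm7 in finer cluster 9. In L, the 15 and 5 called replication genes and the 8 and 1 called G2/M genes of the TDP-43 and NELF-B cKO also became 0, where 2 and 1 of the 11788 genes were called in all.

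The NELF-B cKO values rest on 2 mice, and those of Z on as few as 25 cells in a mouse.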
